A study of Mus musculus with 6 samples.

Results

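The L1 family and the contactins are adhesion molecules of the immunoglobulin superfamily that sit on growing axons, and 10 of their genes were followed here: L1cam, Nrcam, Chl1 and Nfasc of the L1 family and Cntn1, Cntn2, Cntn3, Cntn4, Cntn5 and Cntn6 of the contactins. They were taken by gene symbol with no cut on their values, as every row of the deposited table annotated to exactly 1 of these symbols. The set itself was chosen with earlier results of these data known. That gave 10 probe sets, 1 for each gene, among 28815 probe sets and 19920 genes with a usable probe set of their own. A probe set is the group of array probes that are read together for 1 transcript. RNA came from the cervical cord of mouse embryos at embryonic day 11.5, and the dorsal cord and the floor plate had been left out of the tissue. The labels call 3 arrays Nkx2.9 knockout and 3 arrays wild type, lettered A, B and C in each group, and the study looked for genes downstream of Nkx2.9 in spinal accessory motor neuron development. The labels gave no strain and no promoter or Cre, did not describe the knockout allele, and did not say whether an array held 1 embryo or a pool. The p-values therefore measured only the spread between these samples.

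L1 family proteins span the membrane and bind each other, integrins, neuropilins and matrix proteins outside the cell, while their tails bind ankyrins and through them the spectrin cytoskeleton. Contactins have related extracellular parts but no tail of their own, since a lipid (glycosylphosphatidylinositol) anchor holds them in the membrane, and they work with partners such as the Caspr proteins, receptor phosphatases and the L1 family itself. In the embryonic spinal cord L1cam, Nrcam and Cntn2 are known for their part in the bundling and guidance of commissural and other early axons.

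Each value in the table was a log2 expression value less that probe set's median across the 6 arrays. Differences between arrays can be read from such values, but the level of a gene cannot, so genes were not ranked by expression and the tissue could not be checked by how strongly its markers were expressed. The targeted gene did not separate the groups. Nkx2-9 stood at -0.071, 0.26 and 0.11 on the knockout-labelled arrays A, B and C and at -0.21, 0.071 and -0.11 on wild-type A, B and C, a difference of 0.18 (SE 0.11, limma adjusted p = 0.812). Whether its probes lie inside the deletion is not given in the sources used here, so this value does not check the labels, and the directions below rest on those labels. The Xist RNA, which is made from an inactive X chromosome, was at 4.56 and 4.91 on the arrays labelled knockout B and C and between -0.25 and 0.11 on the other arrays. No wild-type array had high Xist, so whatever goes with high Xist cannot be fully told apart from the knockout label in the differences below.

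In the RefSeq gene order of assembly GRCm38.p6, Cntn3, Chl1, Cntn6 and Cntn4 follow each other on chromosome 6 with 0 protein-coding genes between them, and Cntn2 and Nfasc are direct neighbours on chromosome 1. The promoter windows of the 10 genes (16 windows of 300 bases, RefSeq, GRCm38.p6) were searched on both strands for TNAAGTG, a sequence that Nkx2 homeodomain proteins are known to bind, and for its core AAGTG, which every TNAAGTG contains. TNAAGTG was in 1 of the 16 windows, that of Cntn3, and in 11.5% of the 32851 windows of all genes. AAGTG was in 8 of the 16 windows, belonging to 6 of the genes, and in 46.4% of all windows, so the short core was about as frequent near these genes as elsewhere. The 250 bases before the start are shown for Cntn3, which has the longer match, for L1cam and Cntn2, which have only the core, and for Nrcam, which has neither. They run 5′ to 3′ on the strand of the gene, and capitals mark AAGTG or its reverse complement CACTT. The Cntn3 stretch lies at chr6:102464668-102464917 (minus strand), that of L1cam at chrX:73880791-73881040 (minus), that of Cntn2 at chr1:132542941-132543190 (minus) and that of Nrcam at chr12:44328635-44328884 (plus).
Cntn3: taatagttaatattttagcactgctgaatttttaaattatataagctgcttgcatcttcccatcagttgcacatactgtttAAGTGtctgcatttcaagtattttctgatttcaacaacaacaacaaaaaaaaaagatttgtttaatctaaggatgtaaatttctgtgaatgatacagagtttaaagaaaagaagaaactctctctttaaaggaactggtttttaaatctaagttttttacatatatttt
L1cam: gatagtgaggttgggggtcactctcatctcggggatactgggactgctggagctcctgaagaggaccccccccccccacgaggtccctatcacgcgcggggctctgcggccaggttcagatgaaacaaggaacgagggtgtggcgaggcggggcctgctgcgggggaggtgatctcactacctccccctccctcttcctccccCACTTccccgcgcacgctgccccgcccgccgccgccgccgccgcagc
Cntn2: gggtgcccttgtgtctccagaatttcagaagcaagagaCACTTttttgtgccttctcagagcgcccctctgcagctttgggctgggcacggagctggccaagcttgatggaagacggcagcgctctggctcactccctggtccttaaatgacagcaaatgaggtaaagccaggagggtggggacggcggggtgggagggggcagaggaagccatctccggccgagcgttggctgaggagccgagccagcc
Nrcam: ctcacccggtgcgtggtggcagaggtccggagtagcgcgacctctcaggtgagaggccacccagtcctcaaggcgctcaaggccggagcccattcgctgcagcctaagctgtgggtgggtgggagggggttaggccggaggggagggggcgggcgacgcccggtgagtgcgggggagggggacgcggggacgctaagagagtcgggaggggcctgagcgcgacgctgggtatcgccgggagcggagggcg
The core begins 169 bases before the start in Cntn3, 47 bases before it in L1cam and 212 before it in Cntn2. In the whole window 27.7% of the bases of Cntn3 were G or C and 0 CpG pairs were found, while that of Nrcam had 74.0% and 37 CpG pairs; the median of all windows was 52.7% and 7. A match is a run of letters, not evidence of binding, and the windows are those of RefSeq starts, which need not be the starts used in this tissue.

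Most of these adhesion genes had lower means in the arrays labelled knockout, but none passed the test. The mean was lower for 8 of the 10 genes, against 45% of all probe sets, and the median of the 10 differences was -0.22 on the log2 scale, against 0.0087 for the whole table. The L1 family had 4 of 4 lower, with a median of -0.30, and the contactins had 4 of 6 lower, with a median of -0.17. Cntn2 went the other way, at 0.26, and Cntn5 was at 0.014. In limma 0 of the 10 had an adjusted p under 0.05, as for the table as a whole, where 0% passed. Without adjustment 0 of the 10 had a p under 0.05, against 5.57% of all probe sets (1605 of 28815). The adjusted p-values of the genes lay between 0.812 and 0.986. For 1 of the 10 genes, Cntn3, the values of the groups were fully apart, while 10.9% of complete probe sets did not overlap in either direction and 4.25% were separated with the knockout group lower. The count of 8 lower was also 8 with quantile normalization and with arrays centred on their medians. The median of the 10 differences was -0.10 with knockout C left out and -0.12 with wild-type B left out. It was -0.32 without knockout B, -0.30 without wild-type A, -0.26 without wild-type C and -0.21 without knockout A.

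**Figure D1:**
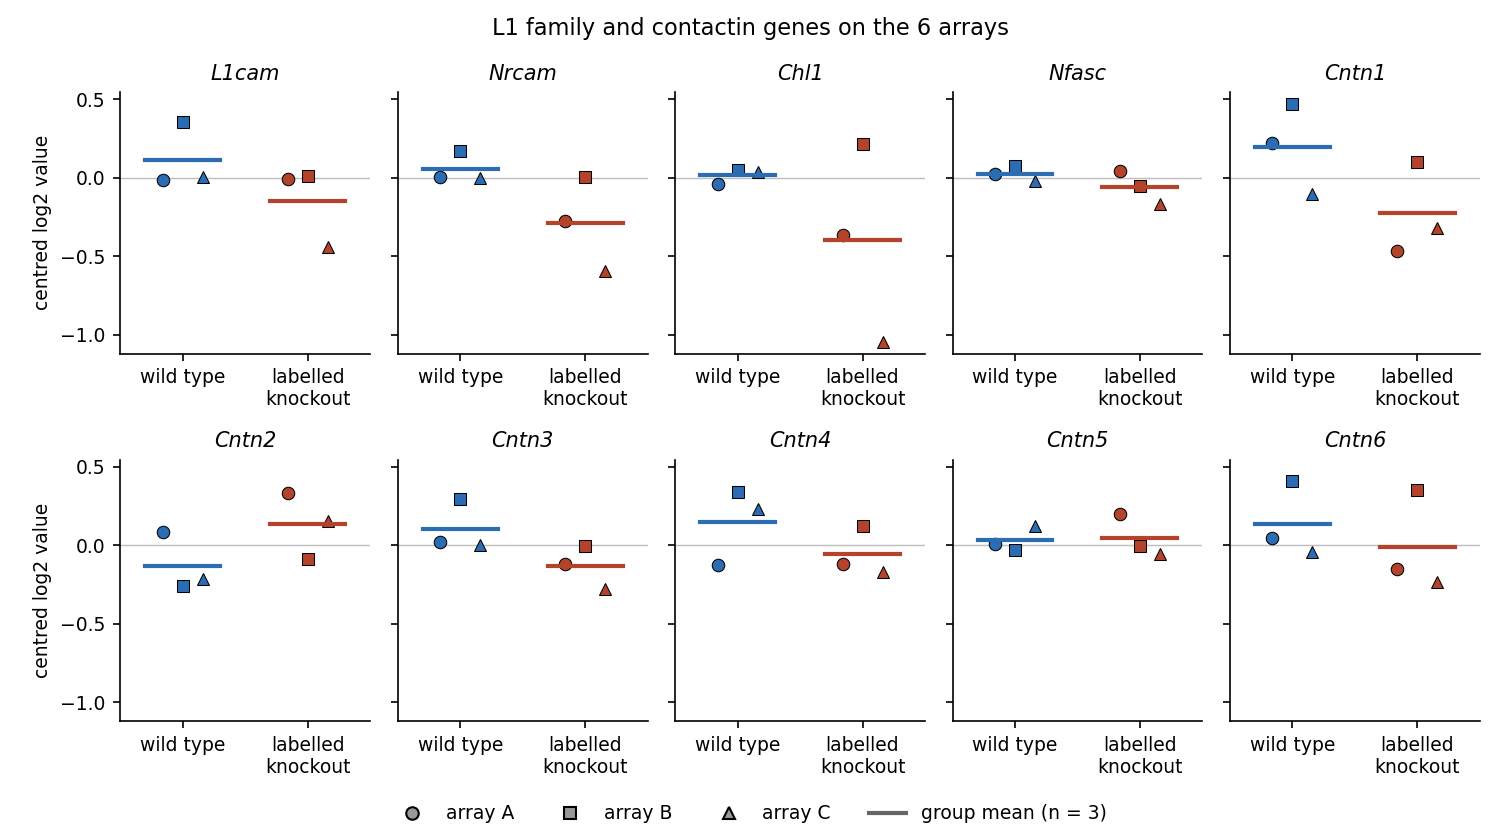
Centred log2 value (vertical axis) of each of the 10 genes on the 3 wild-type arrays (blue) and the 3 arrays labelled knockout (red). Shapes give the letter of the array and bars the group mean (n = 3). The array labelled knockout C is lowest in 8 genes and wild-type B is highest in 7.

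Most of the extreme values lay in 2 arrays. The array labelled knockout C held the lowest of the 6 values in 8 of the 10 genes, whereas it was lowest for 18.5% of all complete probe sets. Wild-type B held the highest value in 7 of the 10, against 18% of all probe sets. With both arrays left out, a choice made after seeing the values, 6 of the 10 were lower and the median of the 10 differences was -0.028. Leaving out the lowest knockout value and the highest wild-type value of a gene raises its difference by construction. The shift is therefore a description and not a test. These adhesion genes were also more variable within groups than most genes on the array: the pooled SD within groups had a median of 0.21, against 0.083 for all probe sets, and it was above 0.083 in 9 of the 10. The difference was larger than that SD in 6 of the 10, a count for which no share over all probe sets was computed.

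L1cam, the founding member of the family and a gene of the X chromosome, stood at -0.0075, 0.014 and -0.44 on the knockout-labelled arrays A, B and C and at -0.016, 0.35 and 0.0075 on wild-type A, B and C. On 4 of the 6 arrays it was almost level, with knockout C low and wild-type B high, and the groups overlapped. Its difference was -0.26 (SE 0.15, 1.2-fold lower under the knockout label, 95% interval -0.63 to 0.11, limma adjusted p = 0.812). With knockout C left out it was -0.11, with wild-type B left out -0.14, and with both left out 0.0073. On the arrays with high Xist, L1cam was at 0.014 (knockout B) and at -0.44 (knockout C). With a term for those arrays, which leaves the comparison to knockout A against the wild type, the difference was -0.12. A relation of L1cam to Xist was not tested.

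Nrcam, whose product binds L1 family and contactin partners on commissural axons, was at -0.27, 0.0032 and -0.60 on the knockout-labelled arrays A, B and C and at 0.0070, 0.17 and -0.0032 on wild-type A, B and C. The groups overlapped only by knockout B and wild-type C, whose values were nearly equal. Nrcam had the lowest unadjusted p of the 10 genes. The difference was -0.35 (SE 0.15, 1.27-fold lower, 95% interval -0.70 to 0.013, limma unadjusted p = 0.0564, adjusted p = 0.812). It was -0.19 with knockout C left out and -0.49 with knockout B left out.

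Chl1, the close homologue of L1, was at -0.36, 0.22 and -1.04 on the knockout-labelled arrays A, B and C. On wild-type A, B and C it was at -0.038, 0.053 and 0.038, a range that lay inside that of the other group. The arrays labelled knockout thus held both the highest and the lowest Chl1 value, and their SD was 0.63 against 0.049 in the wild type. The difference was -0.41 (SE 0.29, 1.33-fold lower, 95% interval -1.12 to 0.29, limma adjusted p = 0.816). It was -0.091 with knockout C and -0.72 with knockout B left out. Chl1 had the widest spread of the 10 genes, with a pooled SD within groups above that of 99.2% of all complete probe sets.

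Nfasc encodes neurofascin, which gathers at the axon initial segment and at nodes of Ranvier in later life, and it had the narrowest range of the L1 family. It was at 0.042, -0.053 and -0.17 on the knockout-labelled arrays A, B and C and at 0.023, 0.074 and -0.023 on wild-type A, B and C. The groups overlapped. The difference was -0.085 (SE 0.065, 95% interval -0.24 to 0.071, limma adjusted p = 0.826). It was -0.030 with knockout C left out and -0.14 with knockout A left out, and with the Xist term it turned to 0.018.

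Cntn1, the contactin that pairs with Caspr proteins at sites of axon and glia contact, had the largest difference of the 10 genes. It was at -0.47, 0.10 and -0.32 on the knockout-labelled arrays A, B and C and at 0.23, 0.47 and -0.10 on wild-type A, B and C. Knockout B lay above wild-type C, so the groups overlapped. The difference was -0.42 (SE 0.19, 1.34-fold lower, 95% interval -0.89 to 0.039, limma unadjusted p = 0.0663, adjusted p = 0.812). It kept its sign without any single array, from -0.59 without the array labelled knockout B to -0.29 without wild-type B.

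Cntn2, also known as TAG-1, is found early and transiently on commissural and motor axons, and its difference had the opposite sign to that of the 8 lower genes. It was at 0.33, -0.086 and 0.16 on the knockout-labelled arrays A, B and C and at 0.086, -0.26 and -0.21 on wild-type A, B and C. Wild-type B, the highest array for 7 of the other genes, was the lowest for Cntn2, and knockout A was the highest. The difference was 0.26 (SE 0.13, 1.2-fold higher under the knockout label, 95% interval -0.059 to 0.59, limma unadjusted p = 0.0937, adjusted p = 0.812), and it was positive without any single array, from 0.16 without knockout A to 0.37 without knockout B. Whether the Cntn2 difference departs from that of the other genes was not tested. Its neighbour on the chromosome, Nfasc, was at -0.085.

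Cntn3 was the gene whose groups did not overlap, by a small margin. It was at -0.12, -0.0033 and -0.28 on the knockout-labelled arrays A, B and C and at 0.022, 0.29 and 0.0033 on wild-type A, B and C, and the gap lay between knockout B and wild-type C. The difference was -0.24 (SE 0.10, 1.18-fold lower, 95% interval -0.49 to 0.011, limma unadjusted p = 0.0579, adjusted p = 0.812), and it was -0.15 without wild-type B. Cntn3 is also the gene with TNAAGTG in the stretch shown above, but 1 gene cannot relate that match to its values.

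Cntn4, a contactin best known from the olfactory and visual systems, was at -0.12, 0.12 and -0.17 on the knockout-labelled arrays A, B and C and at -0.13, 0.34 and 0.23 on wild-type A, B and C. The low value of wild-type A placed that array among the other group, and the difference of -0.20 (SE 0.14, limma adjusted p = 0.812) was -0.11 with wild-type B left out and -0.34 with wild-type A left out. Cntn6, whose product is known as a Notch ligand, had values from -0.23 to 0.35 on the arrays labelled knockout and from -0.044 to 0.41 in the wild type. Its difference was -0.15 (SE 0.19, 95% interval -0.59 to 0.30), it was -0.33 without knockout B, -0.035 without knockout C and -0.010 without wild-type B, and it turned to 0.10 with knockout C and wild-type B both left out. Cntn5, known from the auditory system, had nearly equal means: it ranged from -0.055 to 0.20 on the arrays labelled knockout and from -0.030 to 0.12 in the wild type, with a difference of 0.014 (SE 0.081, 95% interval -0.18 to 0.21, limma adjusted p = 0.986). That interval still allows a change of up to 0.21 in size. The 4 neighbours on chromosome 6 (Cntn3, Chl1, Cntn6 and Cntn4) were all on the lower side, at -0.24, -0.41, -0.15 and -0.20.

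**Figure D2:**
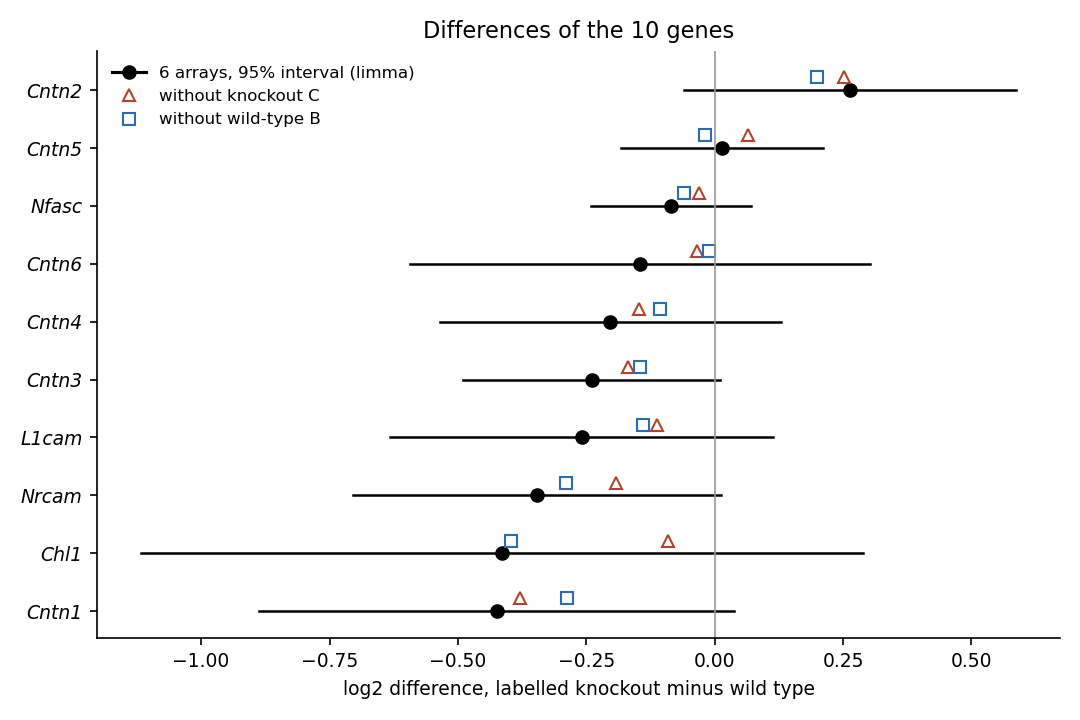
Log2 difference (horizontal axis), labelled knockout minus wild type, of the 10 genes over all 6 arrays (black, with the 95% interval from limma), with knockout C left out (red triangles) and with wild-type B left out (blue squares). Every interval includes 0, and Chl1 shifts from -0.41 to -0.091 without knockout C.

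Set against the whole table, the 10 differences lay mostly towards the lower edge. The size of the Cntn1 difference was above that of 99% of all probe sets, that of Chl1 above 98.9%, that of Nrcam above 98% and those of Cntn2 and L1cam above 95.4% and 95.1%. For Cntn3 and Cntn4 it was above 94.1% and 91.7%. Cntn6, Nfasc and Cntn5 were in the body of the distribution, above 84.6%, 67.1% and 15.5%. These genes also varied more within groups than most, and the 7 whose sizes rank highest had unadjusted p-values from 0.0564 to 0.202.

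**Figure D3:**
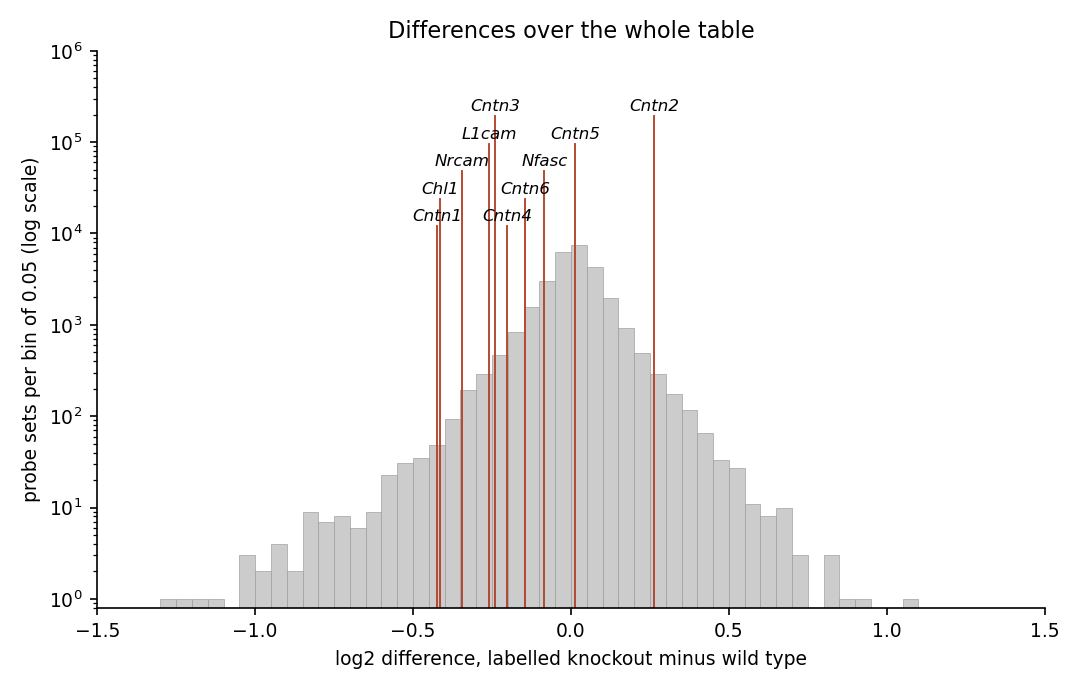
Number of probe sets (vertical axis, log scale) by log2 difference, labelled knockout minus wild type (horizontal axis, bins of 0.05; 7 probe sets lie beyond 1.5 in size and are not drawn). Red lines mark the 10 genes: 8 lie below 0, Cntn5 lies near it and Cntn2 at 0.26.

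Genes used by neurons in general followed the same arrays. The pan-neuronal list (18 genes such as Tubb3, Elavl3 and Syt1) had medians of 0.045, 0.18 and -0.018 on wild-type A, B and C and of -0.079, 0.018 and -0.31 on the knockout-labelled arrays A, B and C. Like the adhesion genes, it was highest in wild-type B and lowest in knockout C. In the knockout group 17 of the 18 had lower means, with a median difference of -0.20, or -0.11 without knockout C; 3 had an unadjusted p under 0.05 in limma and 0 passed after adjustment. Elavl3, an RNA-binding protein gene of new neurons, was at -0.13 (SE 0.044) and Syt1, a synaptic vesicle calcium sensor gene, at -0.44 (SE 0.17). When the value of each array was taken relative to its pan-neuronal median, 6 of the 10 adhesion genes were lower, their median difference was -0.028, and that of all probe sets was 0.20, with 4.61% of them lower. On that scale Nfasc and Cntn6 turned to 0.11 and 0.048, Cntn1 and Chl1 were at -0.23 and -0.22, and Cntn2 was at 0.46 (limma unadjusted p = 0.00417, adjusted p = 0.172). That fit gave all 10 genes the same SE of 0.16, so the p does not measure the spread of Cntn2 itself. In tissue measured in bulk, fewer neurons and less RNA per neuron cannot be told apart.

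**Figure D4:**
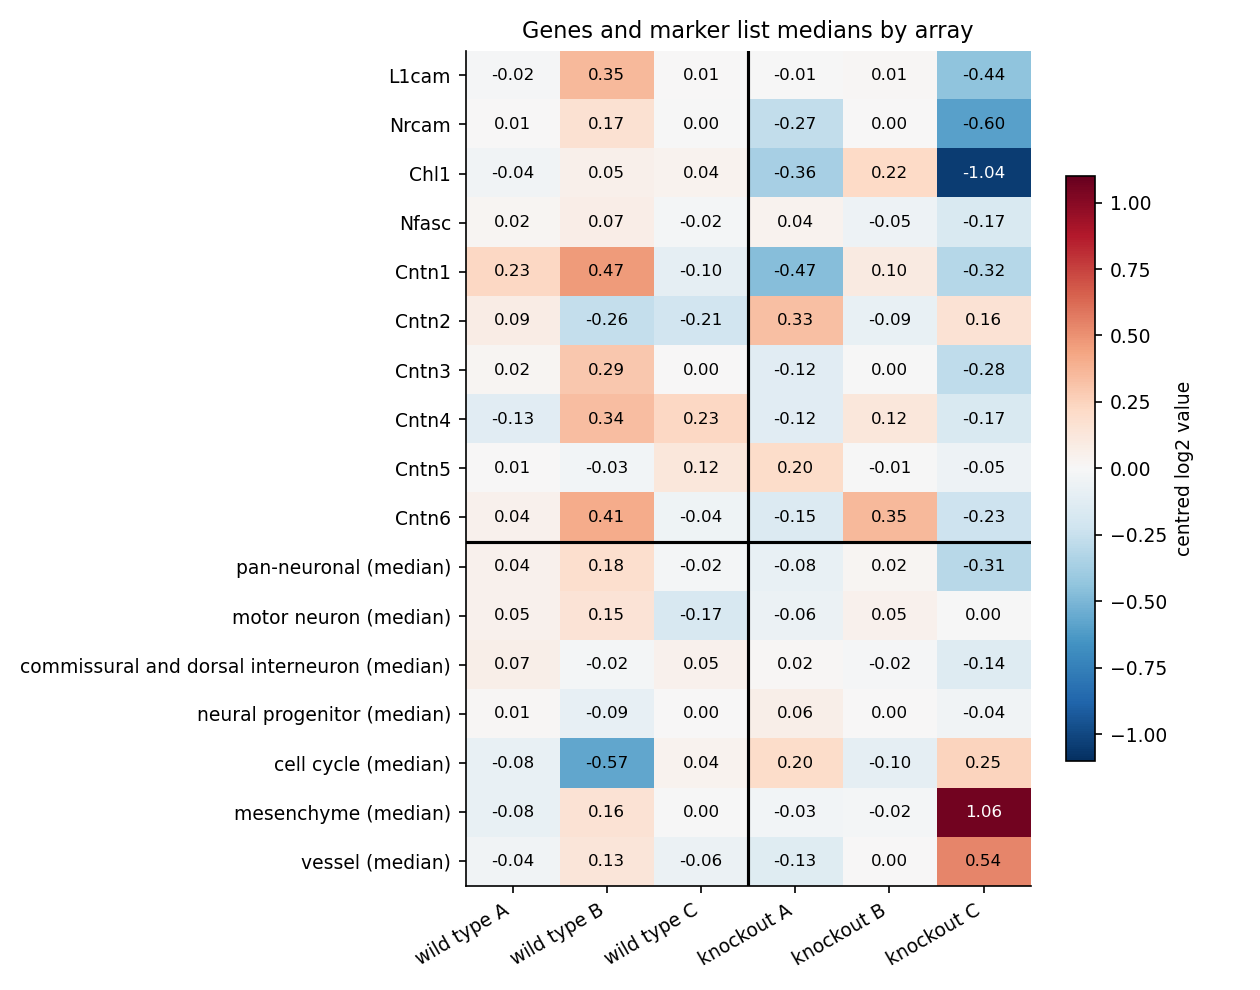
Centred log2 value (colour, with the number in each cell) of the 10 genes and the medians of 7 marker lists (rows) on the 6 arrays (columns, wild type left and labelled knockout right). The columns of wild-type B and knockout C stand out, with pan-neuronal medians of 0.18 and -0.31 and a mesenchyme median of 1.06 on knockout C.

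Markers of dividing cells stood apart on wild-type B and those of some non-neural cells on knockout C. The cell cycle list (12 genes) had a median of -0.57 on wild-type B against a range of -0.095 to 0.25 elsewhere, and all 12 had higher means in the arrays labelled knockout (median difference 0.33, and 0.14 without wild-type B). The mesenchyme list (10 genes) had a median of 1.06 on knockout C, against -0.084 to 0.16 elsewhere, and the vessel list (9 genes) 0.54 against -0.13 to 0.13. No gene of the 3 lists had an unadjusted p under 0.05. Their part in the differences of the adhesion genes was not tested. Motor neuron genes, like the adhesion genes, were highest on wild-type B but were not lowest on knockout C, with list medians of -0.061, 0.048 and -0.0032 on the knockout-labelled arrays A, B and C and of 0.048, 0.15 and -0.17 on wild-type A, B and C (11 genes, median difference -0.0031, with a range of -0.070 to 0.095 when 1 array was left out). Isl2, a motor neuron transcription factor gene, was at 0.18 (SE 0.067) and Prph, the peripherin gene of neurons with axons leaving the cord, at -0.40 (SE 0.18).

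The commissural and dorsal interneuron list (11 genes) bears on Cntn2, L1cam and Nrcam, which such neurons are known to use. Its median difference was -0.027, or -0.059 to -0.0039 with 1 array left out, with 7 lower, and 2 had an unadjusted p under 0.05 in limma. These were Barhl2 and Barhl1, transcription factor genes of the dorsal dI1 commissural neurons, in tissue from which the dorsal cord had been left out. They were at -0.57 (SE 0.11, 1.48-fold lower) and -0.27 (SE 0.093). Barhl2 stood at -0.21, -0.14 and -0.36 on the knockout-labelled arrays A, B and C and at 0.32, 0.14 and 0.55 on wild-type A, B and C, without overlap, and its adjusted p was 0.812. Robo3, a guidance receptor of commissural axons before they cross, was looked at after the values were seen: it was at 0.33, -0.072 and -0.051 on the knockout-labelled arrays A, B and C and at 0.099, -0.25 and 0.051 on wild-type A, B and C. As for Cntn2, knockout A was its highest array (14.9% of all complete probe sets) and wild-type B its lowest (17.9%). On the C arrays the order was opposite, with Cntn2 at 0.16 on knockout C and -0.21 on wild-type C. By the profile distance used below, Robo3 ranked 54 of 17096 genes in nearness to Cntn2.

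Binding partners of the 10 genes on the same or the next cell had a median difference of -0.095 (28 genes, 18 lower), which was -0.051 without wild-type B and -0.060 without knockout C. In limma 3 of the 28 had an unadjusted p under 0.05, against 5.57% of all probe sets, and 0 passed after adjustment. Epha3, an Eph receptor gene of motor and other axons, was at -0.25 (SE 0.079), Cntnap5b, a Caspr family gene, at -0.19 (SE 0.075) and Notch1, a receptor for contactin ligands, at 0.34 (SE 0.13). Notch1 was at 0.30, 0.014 and 0.26 on the knockout-labelled arrays A, B and C and at -0.033, -0.40 and -0.014 on wild-type A, B and C. The named partners that follow were picked for their role after the values were seen. The Caspr genes Cntnap1 and Cntnap2, partners of Cntn1 and Cntn2, were at -0.15 (SE 0.065) and -0.19 (SE 0.14). The neuropilin gene Nrp1, whose product takes part with L1cam in the response to Sema3a, was at -0.24 (SE 0.23), with a single high value of 0.64 on wild-type B. Ptprz1 and Ptprg, receptor phosphatase genes whose products bind contactins, were at 0.016 (SE 0.12) and 0.12 (SE 0.083).

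Of the matrix ligands (11 genes, 4 lower, median 0.0075, or -0.013 to 0.045 with 1 array left out), 2 had an unadjusted p under 0.05 and 0 an adjusted one. Vcan, the versican gene, was at 0.66 (SE 0.17) and Lama1, a laminin chain gene, at 0.23 (SE 0.081). Vcan was at 0.14, 0.24 and 0.80 on the knockout-labelled arrays A, B and C and at -0.29, -0.14 and -0.35 on wild-type A, B and C, without overlap. Reln and Sema3a, singled out after their values were seen, were both at -0.47 (SE 0.20 and 0.22). Linkers to the cytoskeleton (18 of 19 genes had a probe set of their own, 12 lower, median -0.074, or -0.029 without knockout A, -0.049 without wild-type B) had 0 with an unadjusted p under 0.05. Dlg1, a scaffold protein gene, had the lowest p, at 0.21 (SE 0.088). Shtn1, which encodes the shootin clutch between L1cam and actin, was singled out after its value was seen: it stood at -0.32, 0.068 and -0.75 on the knockout-labelled arrays A, B and C and at 0.049, 0.65 and -0.049 on wild-type A, B and C, a difference of -0.55 (SE 0.26). Again knockout C was lowest and wild-type B highest. Ank3 and Ank2, ankyrin genes named for their role, were at -0.16 (SE 0.11) and 0.061 (SE 0.10).

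Genes of signalling and endocytosis had a median of -0.030 (14 of 19 genes had a probe set of their own, 9 lower; 0.0063 without knockout C) and 0 with an unadjusted p under 0.05. Fyn, a kinase gene that acts downstream of contactins and L1 family proteins, had the lowest p, at -0.070 (SE 0.044). Among the sheddases and other proteases (15 of 16 genes, 5 lower, median 0.032, or 0.013 to 0.065 with 1 array left out), Bmp1 had an unadjusted p under 0.05, at 0.16 (SE 0.066). Bace1 and Adam10, proteases that cut Chl1 and L1cam, named for their role, were at -0.12 (SE 0.080) and 0.0077 (SE 0.086).

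**Figure D5:**
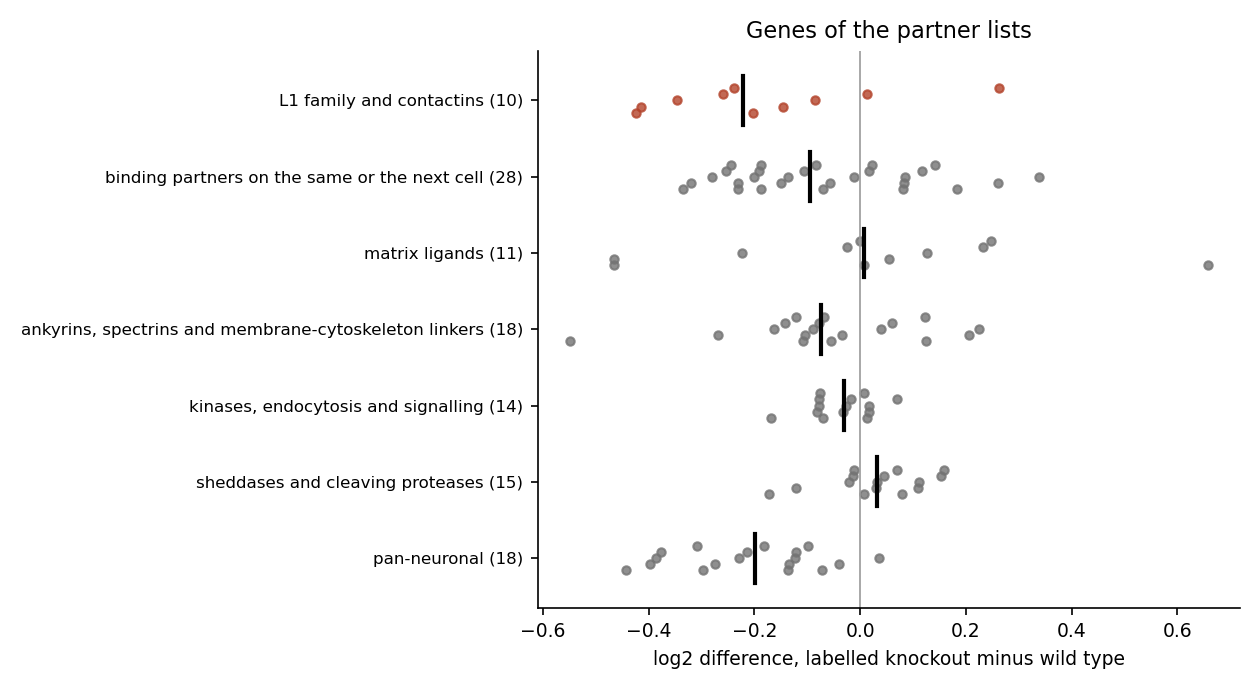
Log2 difference (horizontal axis), labelled knockout minus wild type, of each gene (points) of the 10 adhesion genes (red), the partner lists and the pan-neuronal list (grey), with the number of genes in brackets and black bars at the medians. The adhesion genes have a median of -0.22 and the pan-neuronal genes -0.20, while the partner lists have medians from -0.095 to 0.032.

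The array profiles of the 10 genes were compared by the mean absolute distance between centred values over the 6 arrays. Cntn3 was the nearest of the other members for 5 genes, L1cam (0.0659), Nrcam, Nfasc, Cntn4 and Cntn6, and L1cam was the nearest to Cntn3. The distance from Cntn2 to its nearest member, Cntn5, was 0.178, the largest of these. Among 17096 other genes the 5 nearest to Cntn1 were Pld5 (0.0554), Adcy2, Nap1l3, Dnm3 and Serpini1, and those nearest to Chl1 were Dlg2 (0.0476), Zfhx3, Sorcs3, Sv2a and Cacng2. Dlg2 repeated the low Chl1 value of knockout C, at -1.09, and Adcy2 the high Cntn1 value of wild-type B, at 0.53. For Cntn2, added after the values were seen, they were Cflar (0.0336), Slc25a13, Zfp930, Phykpl and Slc25a24. Likeness over 6 points is a description only.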

How the data were processed

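RNA was isolated with a kit for small samples, amplified into sense-strand cDNA and, per the labels' protocols, tagged with biotin. For the deposited log2 values the authors used RMA, per the submitters' processing notes. Its version is not given in the sources used here, and base 2 is taken from RMA's usual output. Each complete probe set had a median of 0 over the 6 arrays (within 5e-07), so no filter on dim signals could be applied, and 24 of the 28815 probe sets had no value on wild-type C, so their fit rests on 5 arrays. Depth is not defined for arrays, and their number limits the precision.

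Symbols came from the platform annotation; 1605 probe sets with several symbols named no gene. The comparison used limma 3.58.1 (lmFit, eBayes) in R 4.3.3 over all probe sets, with genotype as the only term and Benjamini-Hochberg adjustment at 0.05. The code was also run on simulated data with independent noise for each probe set. Such data lack shifts shared by many probe sets of an array, so that run says nothing about the differences above. Figures were drawn with matplotlib 3.10.9. The 10 genes, the 17 gene lists and the alternatives were chosen with earlier results of these data known. Named list genes were up to 4 per partner list with an unadjusted p under 0.05 (else the 1 of lowest p) and the 2 of lowest p per cell type list. The alternatives were the letter as a block, quantile normalization, array centring, array weights, 1 probe set per gene, probe sets with 1 symbol, an Xist term, values relative to the pan-neuronal median, averaged probe sets, and leaving out arrays.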

Additional observations from a re-analysis of the deposited data

How the results depend on the processing

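No gene of the 10 passed an adjusted p of 0.05 in limma under any setting tried. The replicate block, 1 probe set per gene, probe sets with 1 symbol and averaging the probe sets of each gene leave the 10 differences as they are by construction, since the letters are balanced and each gene had 1 complete probe set. With quantile normalization, array centring and array weights 8 of the 10 were lower. Relative to the pan-neuronal median 287 probe sets passed in the whole table, whose median shifted to 0.20 by construction (4.61% lower). That fit gave the 10 genes 1 common SE of 0.16. The median of the 10 genes was -0.028 there, and Nfasc turned to 0.109 and Cntn6 to 0.048. Groups did not overlap for 0 of the 10, against 21% of all complete probe sets on that scale. With the Xist term, which leaves the comparison to knockout A against the wild type, 7 of the 10 were lower and the median was -0.25. Nfasc turned to 0.018 and L1cam was at -0.12, while Cntn1 was at -0.66, Cntn2 at 0.46 and Cntn5 at 0.17. With knockout C and wild-type B left out together, added after seeing the data, the median was -0.028, and L1cam turned to 0.0073 and Cntn6 to 0.10. A rise is built into that choice for genes with their extremes on these arrays. Leaving out 1 array in turn gave 0 to 5 probe sets past the threshold in the whole table (5 without knockout A), and Cntn5 from -0.064 to 0.065. Groups were then without overlap for 1 to 6 of the 10 genes, against 17.9% to 27.3% of all complete probe sets. The count of 6 and the share of 27.3% were both those without knockout B. The cause of these changes was not tested.

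The labels do not say whether the letter pairs the arrays, and the main fit left it out. Deviations of same-lettered arrays from their group means correlated at 0.165, 0.216 and 0.0159 for A, B and C. Arrays of unlike letters correlated between -0.187 and 0.0436. A and B thus went with their letter, while knockout C correlated better with wild-type A (0.0284). Whether the arrays are pairs was not settled by these values. With the letter as a replicate block, 0 probe sets passed, the median of the 10 genes was -0.2213, and 5 of the 10 had an unadjusted p under 0.05 where 0 had without it, as had 2552 probe sets in all against 1605. Without knockout B 5 of the 10 did too (2871 probe sets in all), and without wild-type B 0 did (977). No low-value filter is possible on centred values.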

Other observations

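The lists of other cells not described above are given here as values, with no gene past an adjusted p of 0.05 in limma. Of the floor plate genes 5 of 5 had a higher mean under the knockout label (median 0.18), 3 with an unadjusted p under 0.05; Foxa1 and Foxa2, forkhead factor genes of the floor plate, were at 0.18 (SE 0.050) and 0.22 (SE 0.066), in tissue from which the floor plate had been left out. Neural progenitor genes had a median of 0.029 (7 of 12 higher), or -0.013 to 0.069 with 1 array left out, with Prom1 at 0.36 (SE 0.13) and Sox3 at 0.15 (SE 0.067). Of the cell cycle genes, Mcm6 was at 0.39 (SE 0.17) and Plk1 at 0.34 (SE 0.17). Dorsal root ganglion genes had a median of -0.016 over 8 genes (5 lower), which was -0.16 without knockout B and 0.057 without knockout C. Runx3 was at 0.18 (SE 0.071) and Prph, which is also on the motor neuron list, at -0.40 (SE 0.18).

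Neural crest and Schwann precursor genes had a median of 0.021 over 7 genes, or -0.053 to 0.13 with 1 array left out, with Mia at 0.51 (SE 0.24) and Fabp7 at -0.094 (SE 0.052). Mesenchyme genes had a median of 0.30 (10 of 10 higher) that turned to -0.055 without knockout C and was 0.51 without knockout A, with Prrx1 at 0.54 (SE 0.46) and Col1a1 at 0.051 (SE 0.046), and vessel genes one of 0.26 that turned to -0.069 without it, with Rgs5 at -0.41 (SE 0.23) and Pecam1 at 0.26 (SE 0.18). Erythroid genes had a median of 0.30 over 5 genes (0.021 without wild-type B, 0.59 without wild-type C), with Hbb-bh1 at 0.34 (SE 0.22) and Hba-x at 0.14 (SE 0.12). Macrophage genes had a median of -0.033 over 9 genes (6 lower, 3 higher), or -0.052 to 0.029 with 1 array left out. Cd68 at 0.28 (SE 0.14) and C1qb at 0.11 (SE 0.13), named by the rule on p, were both among the 3 higher.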
